A study of Homo sapiens with 12 samples.

Results

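Long noncoding RNAs are transcripts that are not translated into protein, and 6 of them were followed here across control and GFI1-expressing lung cancer cells that were attached or floating. MALAT1 and NEAT1 are abundant RNAs that stay in the nucleus. UCA1, LUCAT1, MIR210HG and MIR22HG are linked to hypoxia, oxidative stress or other stress responses. The rows of the gene count table were taken by gene name, which gave all 6 names among 58735 genes, and 5 of the 6 passed the filter on low counts that left 17829 genes for testing. The table listed 14994 genes of a long noncoding class, of which 2584 were tested. UCA1 did not pass, with 0 to 5 counts in every library.

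The cells were A549, an established human lung adenocarcinoma line that grows attached to the dish and carries an inactivating KEAP1 mutation, so that NRF2 is constantly active. The study asked how GFI1, a zinc-finger repressor of blood cell development, changes epithelial cancer cells that lose contact with a substrate. Attached control and attached GFI1 cells were grown on treated culture plates, and floating control and floating GFI1 cells were held for 48 hours on ultra-low attachment plates, with 3 libraries in each of the 4 groups. GFI1 was delivered by a lentivirus with a PGK promoter and a GFP marker by which the cells were sorted. The study's methods give A549 cells with an empty vector as the controls of its animal experiments, and the labels of these libraries name no control vector. All groups share 1 cell line, and no label says that the 3 libraries of a group came from separate cultures, so p values measure the spread between these libraries, which may be technical. GFI1 had 4 to 12 counts in the control libraries and 5154 to 12796 in the GFI1 libraries.

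The libraries held 17014188 to 20748677 counts each, with 26273 to 28042 genes detected. Mitochondrial genes took 6.15% to 7.11% of the counts, and the group means were 6.80% and 6.94% in attached and floating control cells against 6.37% and 6.39% in the corresponding GFI1 cells. The epithelial keratins KRT8 and KRT18 were abundant in every library (lowest counts 25961 and 8281), while EPCAM (6 to 45 counts) and KRT19 (13 to 89 counts) were low throughout. The summed level of the 6 epithelial markers was 8312 to 8828 CPM (counts relative to library size, scaled by TMM) in attached control, 2485 to 2572 in attached GFI1, 5306 to 5671 in floating control and 1904 to 2207 in floating GFI1 cells, nearly all of it from KRT8 and KRT18. The E-cadherin gene CDH1 averaged 120 CPM in attached control and 6.45 CPM in attached GFI1 cells, where CLDN4 averaged 6.01 and 8.08 CPM and KRT19 1.11 and 1.97 CPM. Among the 8 markers of blood, endothelial and stromal cells, CD3E and DCN were at 0 in every library, PTPRC did not exceed 1 count and LUM 3 counts, and PECAM1 reached 10, COL3A1 46 and CDH5 89 counts. Their summed level was 0.893 to 1.72 CPM in attached control, 4.38 to 6.06 in attached GFI1, 0.903 to 1.02 in floating control and 6.29 to 7.11 in floating GFI1 cells. The largest part was COL3A1, a fibrillar collagen, in the control groups (means 1.10 CPM attached and 0.625 CPM floating) and CDH5, an endothelial cadherin, in the GFI1 groups (3.24 and 4.03 CPM). The 3 floating GFI1 libraries spread more widely than the other groups. Replicate 1 had the most MALAT1 and NEAT1, and replicates 2 and 3 had the highest and lowest levels of hypoxia-induced genes. Some results for this group are therefore also given without 1 of them.

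MALAT1 is held in nuclear speckles, bodies enriched in splicing factors, and its unusual 3′ end is formed by cleavage at a tRNA-like structure. NEAT1 is the scaffold of the paraspeckle, a nuclear body that holds RNA-binding proteins and some mRNAs, and it has a short polyadenylated form and a long form that is not. MIR210HG and MIR22HG are the host transcripts from which miR-210, a microRNA induced by hypoxia, and miR-22 are cut. LUCAT1 was described as a smoke- and stress-induced transcript that responds to NRF2, the master regulator of antioxidant genes, and UCA1 was first found in bladder carcinoma. The libraries were made from mRNA bound on poly-T beads, so MALAT1 and the long NEAT1 form were measured only as far as such beads retain them, and the table gives 1 value for all NEAT1 forms.

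Among the members, GFI1 was accompanied by higher MALAT1 and NEAT1 and by far lower LUCAT1, and suspension by higher MIR210HG. In attached cells, 5 of the 5 tested members passed the threshold (adjusted p of 0.05 or less, with no fold threshold) between GFI1 and control cells, 4 higher and 1 lower. Of all tested genes 62.3% passed (29.5% higher and 32.8% lower), and of the long noncoding RNAs 40.2%. The GFI1 comparison in floating cells gave 4 of 5 members, 3 higher and 1 lower, beside 60.4% of all genes (29.3% higher, 31.1% lower) and 38.3% of long noncoding RNAs. Suspension passed for 5 of 5 members in control cells, all higher, beside 40.1% of all genes (19.6% higher, 20.5% lower) and 15.6% of long noncoding RNAs. In GFI1 cells suspension passed for 3 of 5, all higher, beside 31.3% of all genes (15% higher, 16.3% lower) and 10.6% of long noncoding RNAs. The median log2 change of the tested long noncoding RNAs with GFI1 was 0.22 in attached and 0.20 in floating cells, where that of all tested genes was -0.0066 and 0.011. With suspension it was 0.09 in control and 0.05 in GFI1 cells. The interaction, which is the suspension effect in GFI1 cells minus that in control cells, passed for LUCAT1 alone among the 5, beside 10.8% of all genes.

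**Figure D1:**
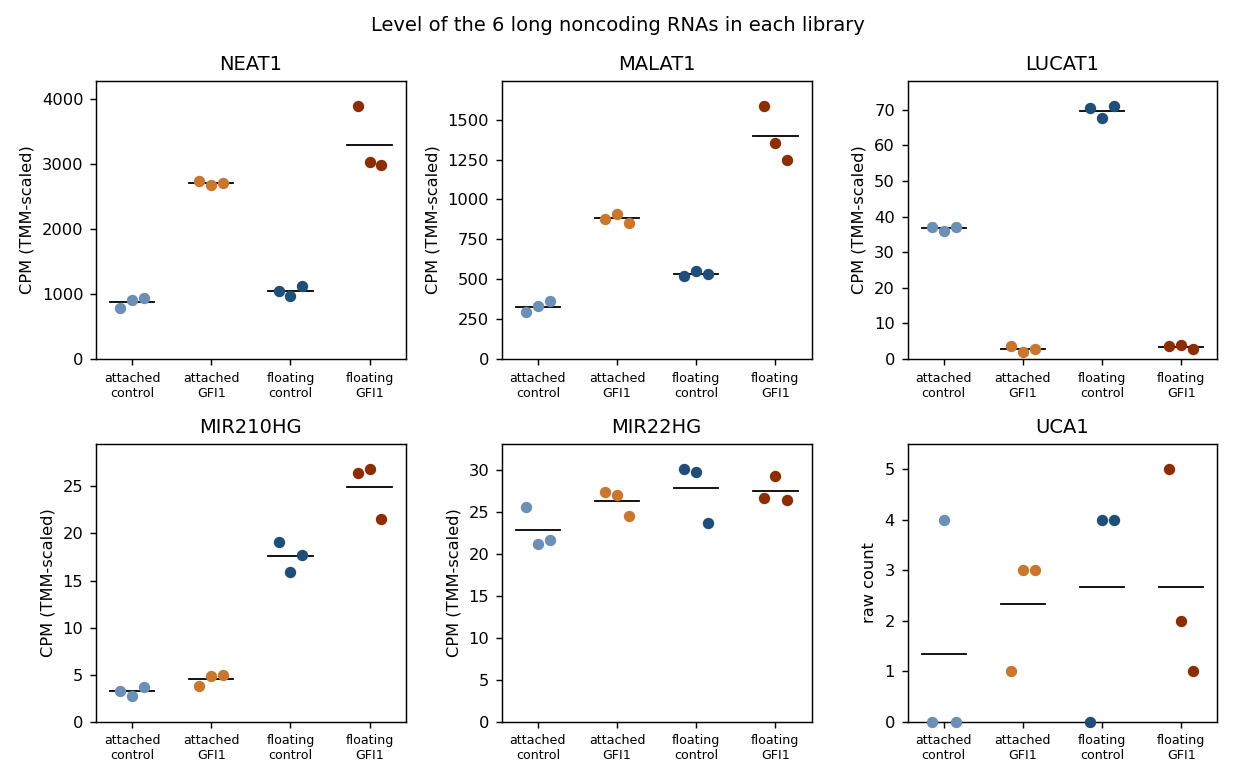
Level of each of the 6 long noncoding RNAs in the 12 libraries, as TMM-scaled CPM on a linear axis from 0 (raw counts for UCA1). Points are libraries and bars are group means. LUCAT1 lies at 1.98 to 4.02 CPM in the 6 GFI1 libraries and at 36.1 to 71.0 CPM in the 6 control libraries.

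Per unit of length and averaged over all groups, MALAT1 and NEAT1 were the first and the third of all long noncoding RNAs. The mean over the 12 libraries was 88.9 FPKM (CPM divided by gene length in kilobases) for MALAT1 (ENSG00000251562) and 87.2 FPKM for NEAT1 (ENSG00000245532), with NORAD, a cytoplasmic RNA that binds PUMILIO proteins, between them at 88.7. AL391427.1 followed at 58.0 FPKM and LRRC75A-AS1, a snoRNA host, at 48.7. The order differed between groups. In attached control cells MALAT1 (37.3 FPKM) and NEAT1 (38.6 FPKM) were below NORAD (72.8), the snoRNA hosts SNHG19 (59.9) and SNHG5 (59.7), LRRC75A-AS1 (45.6) and SNHG6 (39.9). In the table's coordinates (GRCh38), NEAT1 spans chr11:65422774-65445540 and MALAT1 chr11:65497688-65506516, both on the plus strand, 52148 bp apart. Together they took 0.114% of the counts in attached control, 0.376% in attached GFI1, 0.152% in floating control and 0.493% in floating GFI1 cells (means of 3 libraries, SD 0.0119, 0.00182, 0.00751 and 0.0752). The other long noncoding RNAs together took 0.895%, 1.09%, 0.962% and 1.16%.

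NEAT1 was at 782, 914 and 942 CPM in attached control and at 2741, 2675 and 2714 CPM in attached GFI1 cells. It was at 1054, 978 and 1121 CPM in floating control and at 3894, 3032 and 2988 CPM in floating GFI1 cells. All 6 GFI1 libraries were above all 6 control libraries (groups that do not overlap were found for 67% of all genes in the attached and 64.4% in the floating comparison), and floating GFI1 replicate 1 was the highest of the 12. NEAT1 rose with GFI1 by 1.62 ± 0.08 on the log2 scale (SE; 3.08-fold; edgeR adjusted p = 1.29e-15) in attached cells and in floating cells by 1.65 ± 0.08 (adjusted p = 9.04e-16). Of all tested genes, 95.5% and 96.3% had a lower log2 change. Suspension raised NEAT1 far less, by 0.26 ± 0.08 in control cells (edgeR adjusted p = 0.00798) and by 0.29 ± 0.07 in GFI1 cells (adjusted p = 0.00440). These small changes did not hold in every fit. Without floating GFI1 replicate 1 the change in GFI1 cells was 0.14 (edgeR adjusted p = 0.112), and without attached control replicate 1 that in control cells was 0.18 (adjusted p = 0.0819).

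MALAT1 was at 295, 330 and 362 CPM in attached control and at 880, 910 and 854 CPM in attached GFI1 cells. In floating cells it was at 522, 550 and 531 CPM in control and at 1584, 1357 and 1246 CPM in GFI1 cells. The groups were ordered floating GFI1, attached GFI1, floating control and attached control, with no overlap between neighbours, and NEAT1 had the same order. Of all genes, 49.9% in control and 41.4% in GFI1 cells did not overlap between floating and attached libraries. Between GFI1 and control libraries the share was 67% in attached and 64.4% in floating cells. MALAT1 rose with GFI1 by 1.42 ± 0.07 in attached cells (edgeR adjusted p = 1.63e-15) and by 1.39 ± 0.07 in floating cells (adjusted p = 2.34e-15). Unlike the small change of NEAT1, that of MALAT1 with suspension was 0.70 ± 0.07 in control cells (edgeR adjusted p = 6.17e-09) and 0.66 ± 0.07 in GFI1 cells (adjusted p = 2.11e-08). Without floating GFI1 replicate 1 the latter was 0.55 (edgeR adjusted p = 2.27e-07).

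The balance of the RNAs differed between attached and floating cells. The NEAT1 to MALAT1 ratio of counts was 2.67 ± 0.0861 in attached control and 3.08 ± 0.124 in attached GFI1 cells (SD, n = 3), and 1.97 ± 0.172 in floating control and 2.36 ± 0.116 in floating GFI1 cells. Neither RNA's suspension effect differed between GFI1 and control cells past the threshold: the interaction was 0.03 (95% interval -0.19 to 0.25; edgeR adjusted p = 0.914) for NEAT1 and -0.04 (-0.23 to 0.16; adjusted p = 0.876) for MALAT1.

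**Figure D2:**
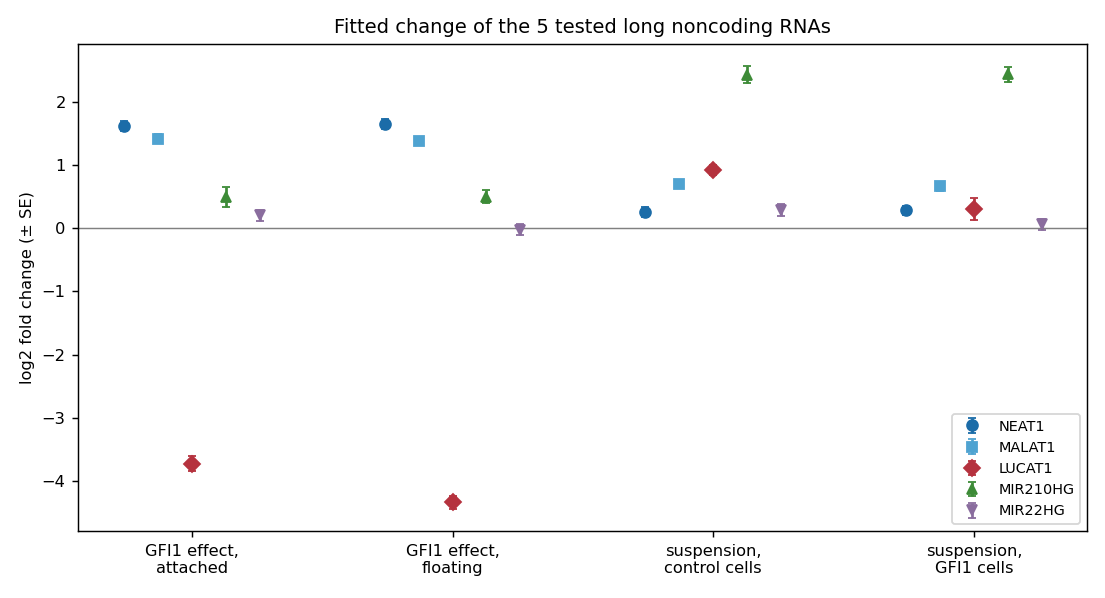
Log2 fold change of the 5 tested long noncoding RNAs in 4 comparisons, with SE bars from the edgeR fit to 12 libraries. NEAT1 and MALAT1 lie between 1.39 and 1.65 for GFI1, LUCAT1 lies at -3.73 and -4.34, and MIR210HG lies at 2.43 and 2.44 for suspension.

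Some of the genes beside NEAT1 and MALAT1 were higher with GFI1 as well. FRMD8, a regulator of cell surface shedding that ends 9249 bp before NEAT1, rose by 1.11 ± 0.06 in attached and 1.18 ± 0.06 in floating cells (edgeR adjusted p = 2.98e-14 and 7.00e-15). AP000769.1, a transcribed pseudogene between NEAT1 and MALAT1, rose by 0.69 ± 0.11 and 0.92 ± 0.10 with GFI1 (edgeR adjusted p = 6.56e-06 and 1.37e-08) and by 0.52 ± 0.11 and 0.75 ± 0.10 with suspension in control and GFI1 cells. Distance was measured between gene midpoints, and 20 other genes tested lay within 250 kb of NEAT1, with MALAT1 left out of the count. Of these, GFI1 in attached cells gave 10 higher and 4 lower (median 0.29), beside 29.5% and 32.8% among all genes. In floating cells 10 were higher and 3 lower (median 0.30), beside 29.3% and 31.1%. With suspension in control cells 2 of the 20 were higher and 3 lower, beside 19.6% and 20.5%.

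**Figure D3:**
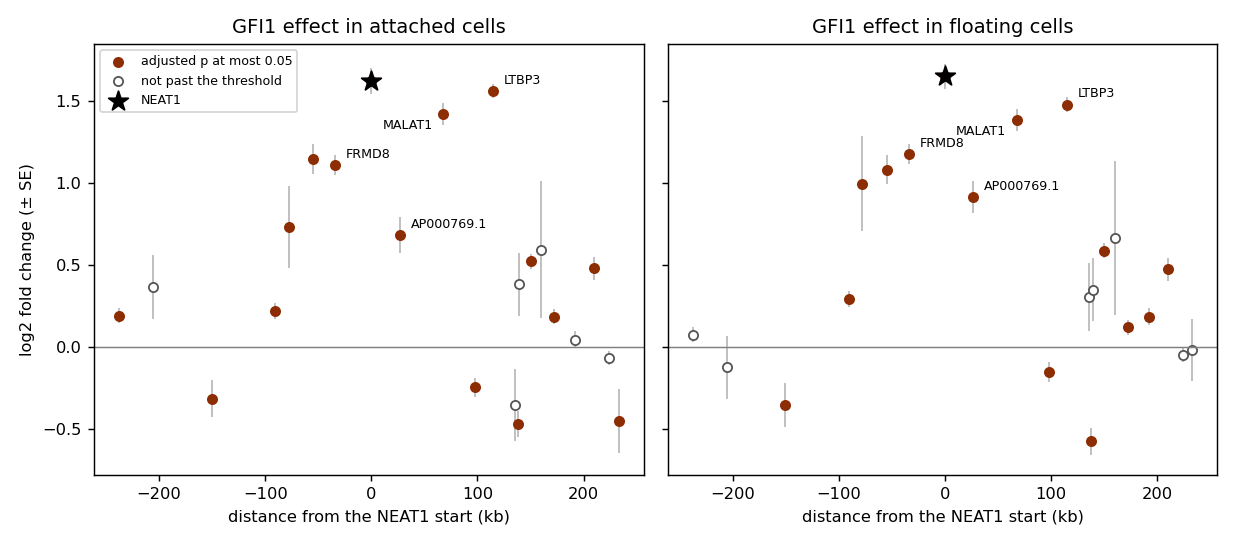
Log2 fold change with GFI1 (SE bars) of each tested gene within 250 kb of NEAT1, in attached and floating cells. The horizontal axis, labelled as distance from the NEAT1 start, gives kb between the midpoints of the gene and NEAT1. Filled points passed an adjusted p of 0.05 and the star is NEAT1. FRMD8, AP000769.1, MALAT1 and LTBP3 are at 0.69 or higher in both panels.

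The genes whose pattern over the 12 libraries was most like that of NEAT1 were found by the root mean square difference between centred log2 CPM values. They were C19orf66, an interferon-induced antiviral gene (0.123), PARP3, an enzyme of DNA repair (0.127), and LTBP3, a carrier of latent TGF-β (0.133). LTBP3 also lies within 250 kb of NEAT1. C19orf66 rose with GFI1 by 1.62 ± 0.10 in attached and 1.46 ± 0.09 in floating cells, PARP3 by 1.59 ± 0.08 and 1.46 ± 0.07, and LTBP3 by 1.56 ± 0.04 and 1.48 ± 0.04. For MALAT1 they were CPE, a peptide-processing carboxypeptidase (0.140), the matrix remodelling-associated gene MXRA8 (0.141) and ABCA1, a cholesterol exporter (0.150). ABCA1 rose by 1.40 ± 0.06 and 1.23 ± 0.06 with GFI1 and by 0.88 ± 0.07 and 0.71 ± 0.06 with suspension in control and GFI1 cells. NEAT1 itself was 87th in likeness to MALAT1 among 13248 genes (0.247).

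The paraspeckle is built from NEAT1 and a set of RNA-binding proteins. Of 12 genes for these proteins, none was higher and 8 were lower with GFI1 in attached cells (list median -0.18), beside 29.5% higher and 32.8% lower among all genes. In floating cells 3 were higher and 4 lower (median -0.05), beside 29.3% and 31.1%. The median in floating cells was -0.02 without floating GFI1 replicate 1, -0.03 without replicate 2 and -0.08 without replicate 3. DAZAP1, an RNA-binding protein of the paraspeckle, fell by 0.51 on the log2 scale in attached cells (SE 0.04; edgeR adjusted p = 7.61e-11) and by 0.34 in floating cells, where HNRNPH3 rose by 0.23 ± 0.04. DAZAP1 also fell with suspension by 0.50 in control and 0.33 in GFI1 cells. With suspension 0 were higher in either cell type and 10 of 12 were lower in control cells and 5 of 12 in GFI1 cells, beside 20.5% and 16.3% lower among all genes. The counts of 0 higher became 1 with GFI1 in attached cells without floating GFI1 replicate 1 or 2, and with suspension in GFI1 cells without attached GFI1 replicate 2 or floating GFI1 replicate 3. Of 12 speckle proteins, GFI1 in attached cells came with 5 higher and 6 lower (for all genes 29.5% and 32.8%), among them ACIN1 at 0.28 ± 0.04 and the splicing factor SRSF3 at -0.44 ± 0.04. In floating cells 5 were higher and 3 lower, and with suspension 2 were higher in either cell type, while 6 were lower in control and 3 in GFI1 cells (for all genes 19.6% and 15% higher, 20.5% and 16.3% lower). SRSF5 rose with suspension by 0.25 ± 0.04 in control and 0.33 ± 0.04 in GFI1 cells, while SRSF2 fell by 0.39 in control cells and SRSF1 fell by 0.40 in GFI1 cells.

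Most of 10 protein-coding mRNAs that are largely kept in the nucleus with unspliced introns were higher with GFI1 and with suspension, as MALAT1 and NEAT1 were. With GFI1, 8 of 10 were higher and 0 lower in attached cells (median 0.31), and 8 of 10 were higher in floating cells (median 0.24), beside 29.5% and 29.3% higher among all genes. The splicing kinase CLK2 at -0.03 ± 0.05 and SNRNP70, a U1 snRNP protein, at -0.06 ± 0.05 did not pass in attached cells. With suspension 9 of 10 were higher in control cells (median 0.37) and 8 of 10 in GFI1 cells (median 0.29), with 0 lower, beside 19.6% and 15% higher among all genes. SNRNP70 was at -0.11 ± 0.05 with suspension in control cells (edgeR adjusted p = 0.0531), and the count lower was 1 without floating control replicate 3 or floating GFI1 replicate 2 or 3. LENG8 rose with GFI1 by 0.43 ± 0.05 and 0.38 ± 0.05 (edgeR adjusted p = 6.75e-08 and 4.49e-07). RSRP1 rose with suspension by 0.66 ± 0.06 in control cells and the cyclin CCNL1 by 0.43 ± 0.05 in GFI1 cells. The TMM scaling factor also differed, at 0.939 to 0.971 in control and 1.04 to 1.06 in GFI1 libraries, as did the mitochondrial share given above. The part of nuclear RNA content, RNA quality and capture of RNAs without a poly-A tail in the rise of MALAT1 and NEAT1 was not tested.

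**Figure D4:**
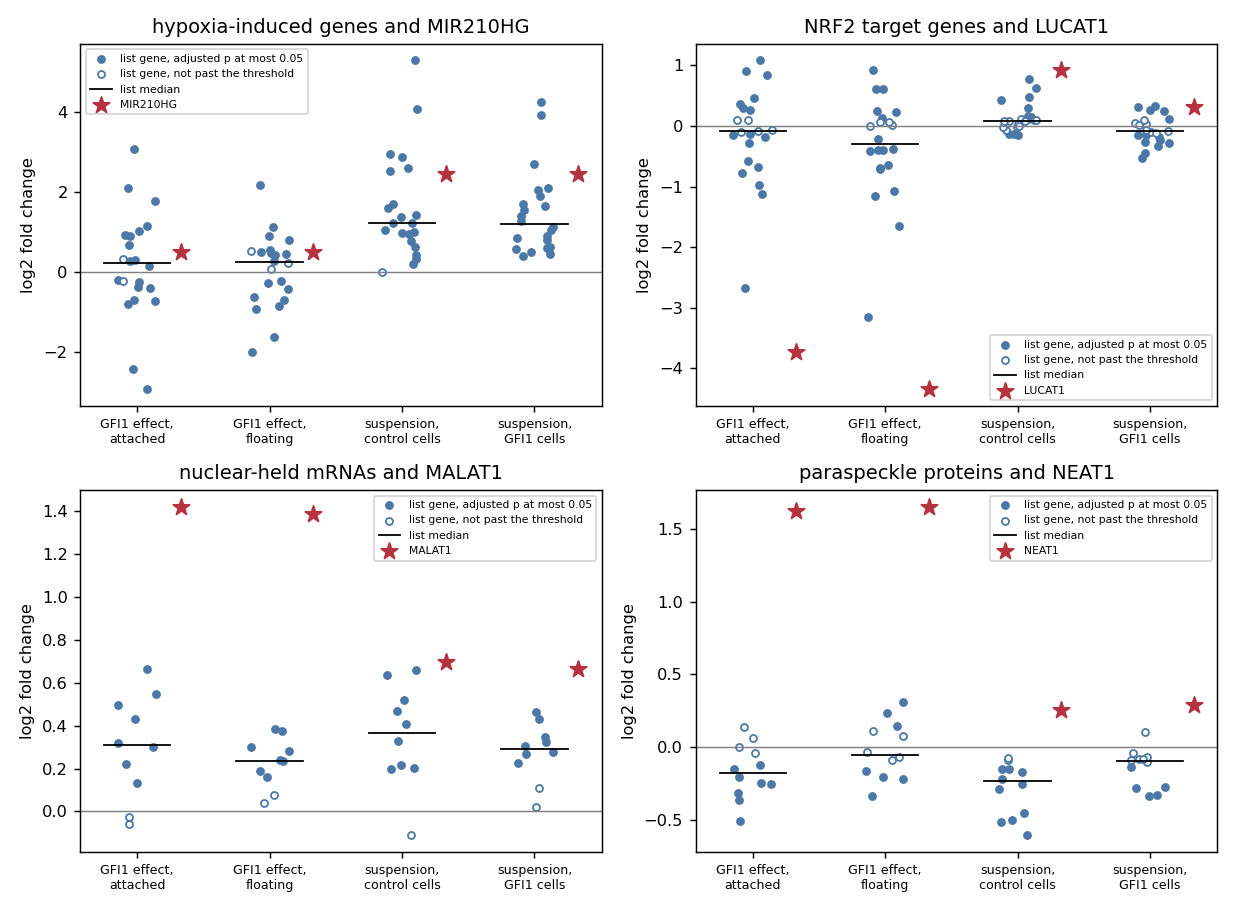
Log2 fold change of the genes of 4 lists in 4 comparisons (points, filled where adjusted p is at most 0.05; bars are list medians) beside 1 member each (stars). The hypoxia-induced genes and MIR210HG are higher with suspension, LUCAT1 lies below every NRF2 target gene for GFI1, and MALAT1 lies above every nuclear-held mRNA and NEAT1 above every paraspeckle gene in all 4 comparisons.

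LUCAT1 (ENSG00000248323), annotated as an antisense RNA at chr5:91054834-91314547 on the minus strand, was the member with the largest change. It was at 37.1, 36.1 and 37.1 CPM in attached control and at 3.72, 1.98 and 2.75 CPM in attached GFI1 cells. In floating cells it was at 70.5, 67.6 and 71.0 CPM in control and at 3.59, 4.02 and 2.74 CPM in GFI1 cells. The GFI1 libraries held 43 to 73 counts each and the control libraries 623 to 1253, with no overlap. Groups did not overlap for 67% of all genes in the attached and 64.4% in the floating comparison. LUCAT1 fell with GFI1 by 3.73 on the log2 scale in attached cells (SE 0.12, 13.2-fold; edgeR adjusted p = 2.47e-19) while in floating cells it fell by 4.34 (SE 0.11, 20.3-fold; edgeR adjusted p = 1.89e-21). Of all tested genes, 0.729% and 0.544% had a lower log2 change in attached and floating cells. By its mean of 1.70 FPKM it was 638th among long noncoding RNAs, from 0.170 FPKM in attached GFI1 to 4.21 FPKM in floating control cells.

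Suspension raised LUCAT1 in control cells by 0.92 ± 0.08 (1.90-fold; edgeR adjusted p = 4.72e-10). In GFI1 cells the values overlapped and the change was 0.31 ± 0.17 (95% interval -0.05 to 0.67; edgeR adjusted p = 0.195). The interaction was -0.62 ± 0.19 (edgeR adjusted p = 0.0378), which made LUCAT1 the only tested member with different suspension effects in GFI1 and control cells. This call was lost in 10 of the 12 fits that each left out 1 library. Without attached GFI1 replicate 1, which held the most LUCAT1 of its group, the interaction was -0.38 (edgeR adjusted p = 0.259) and the suspension effect in GFI1 cells was 0.54 (adjusted p = 0.0222).

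The RefSeq promoter of LUCAT1 (GRCh38.p14, minus strand, chr5:91314353-91314652), 250 bases before to 50 after the start, is shown because the RNA is linked to NRF2. Capitals mark the NRF2 element TGACNNNGC, here on the reverse strand with its first base 54 bases before the start.

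LUCAT1 promoter: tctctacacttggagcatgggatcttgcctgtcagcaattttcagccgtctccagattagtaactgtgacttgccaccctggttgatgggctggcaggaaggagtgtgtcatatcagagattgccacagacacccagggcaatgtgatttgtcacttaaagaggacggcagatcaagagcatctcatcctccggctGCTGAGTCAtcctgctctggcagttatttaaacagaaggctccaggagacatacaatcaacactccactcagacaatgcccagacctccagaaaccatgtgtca

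The search covered both strands. Of 35116 RefSeq promoters of this length, 13.3% held TGACNNNGC. Neither the hypoxia response cores ACGTG and GCGTG nor the GFI1 core AATCACNGC was in this window, and 1.03% of all promoters held the GFI1 core.

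Antioxidant genes driven by NRF2 were split between higher and lower with GFI1. Of 22 NRF2 target genes, GFI1 came with 7 higher and 10 lower in the attached state (median -0.08), beside 29.5% and 32.8% of all genes. In the floating state 6 were higher and 12 lower (median -0.30), beside 29.3% and 31.1%. AKR1B10, an aldo-keto reductase, fell by 2.68 in attached cells (SE 0.05; edgeR adjusted p = 3.32e-23) and fell by 3.16 in floating cells, while its relative AKR1C1 rose by 1.08 ± 0.05 and 0.61 ± 0.05. With suspension 8 were higher and 3 lower in control cells (median 0.09), beside 19.6% and 20.5% of all genes, and 5 were higher and 9 lower in GFI1 cells (median -0.09), beside 15% and 16.3%. In control cells the count lower was 0 without floating control replicate 3 and the median was 0.05 without attached control replicate 2, and in GFI1 cells the median was -0.15, with 12 lower, without floating GFI1 replicate 3. AKR1C1 rose in both, by 0.78 ± 0.05 and 0.31 ± 0.05, and in GFI1 cells TXNRD1, a thioredoxin reductase, fell by 0.45 (SE 0.05). In control cells the lowest adjusted p among the genes that fell was that of TKT, an enzyme of the pentose phosphate pathway, at -0.13 ± 0.04 (edgeR adjusted p = 0.0118). Without floating control replicate 3 the value of TKT was -0.11 (adjusted p = 0.0719). The interaction was lower for 10 and higher for 0 of the 22, beside 6.01% lower among all genes.

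The protein-coding genes most like LUCAT1 over the 12 libraries were NT5E, the ecto-nucleotidase CD73 (root mean square difference 0.212), HGF, the ligand of the MET receptor (0.260), and PLXNA2, a semaphorin receptor (0.294). NT5E was at -3.67 ± 0.09 and -3.91 ± 0.08 with GFI1 in attached and floating cells, HGF at -3.78 ± 0.18 and -4.33 ± 0.15, and PLXNA2 at -3.88 ± 0.09 and -4.19 ± 0.09. They were chosen by their likeness to LUCAT1 in the same libraries, so large falls with GFI1 follow from the choice. Suspension in control cells raised NT5E by 0.90 ± 0.06, HGF by 1.21 ± 0.10 and PLXNA2 by 0.52 ± 0.06. In GFI1 cells NT5E rose by 0.67 ± 0.12, while HGF was at 0.65 ± 0.27 (edgeR adjusted p = 0.0874) and PLXNA2 at 0.20 ± 0.14 (adjusted p = 0.294). Without attached GFI1 replicate 3 HGF was at 0.91 (edgeR adjusted p = 0.0449).

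Of the genes around LUCAT1, ARRDC3, an arrestin-domain gene 54177 bp upstream of it on the same strand, shared the direction of all its passing changes. It was at -1.14 ± 0.07 and -1.38 ± 0.06 with GFI1, and it rose with suspension by 1.24 ± 0.06 in control and 1.01 ± 0.07 in GFI1 cells. ADGRV1, an adhesion receptor gene on the opposite strand that overlaps LUCAT1, had at most 48 counts in a library and was at -1.65 ± 0.49 and -2.53 ± 0.43 with GFI1 (edgeR adjusted p = 0.00542 and 1.54e-05). Without attached control replicate 1 the first of these was -1.30 (edgeR adjusted p = 0.0507). AC123595.1, a noncoding RNA inside LUCAT1 on its strand with at most 20 counts, was at -3.69 ± 0.79 and -3.08 ± 0.62. The strand setting of the counting was not stated, so reads of ADGRV1 and LUCAT1 in their overlap cannot be told apart. LYSMD3, the nearest tested gene on the other side at 525250 bp, was at 0.23 ± 0.07 and 0.28 ± 0.07. Without attached control replicate 3 the first of these was 0.15 (edgeR adjusted p = 0.0811). Measured between midpoints, 3 other genes tested lay within 250 kb of LUCAT1, and ADGRV1 was not among them. Among all genes 29.5% were higher and 32.8% lower with GFI1 in attached cells, and 29.3% and 31.1% in floating cells. Of the 3, GFI1 came with 1 higher and 2 lower in the attached state, and with 0 and 2 in the floating state. The higher one was ARRDC3-AS1, antisense to ARRDC3, at 1.05 ± 0.31 (edgeR adjusted p = 0.00473) and, in floating cells, at 0.68 ± 0.30 (adjusted p = 0.0530), and it is named after its values were seen.

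MIR210HG (ENSG00000247095; chr11:565660-568457, minus strand) was the member that rose most with suspension. It was at 3.28, 2.77 and 3.73 CPM in attached control and at 19.1, 16.0 and 17.7 CPM in floating control cells. In GFI1 cells it was at 3.77, 4.89 and 5.01 CPM attached and at 26.4, 26.9 and 21.6 CPM floating. All 6 floating libraries were above all 6 attached ones, with 265 to 487 counts against 51 to 106. Of all genes, 49.9% in control and 41.4% in GFI1 cells did not overlap between floating and attached libraries. MIR210HG rose with suspension by 2.43 ± 0.14 in control cells (5.40-fold; edgeR adjusted p = 2.78e-13) and by 2.44 ± 0.12 in GFI1 cells (5.43-fold; adjusted p = 6.07e-14). These were the 9th and the 7th highest log2 changes among 2584 long noncoding RNAs. The interaction was 0.01 (95% interval -0.44 to 0.46; edgeR adjusted p = 0.993).

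GFI1 was accompanied by a smaller rise of MIR210HG, of 0.50 ± 0.16 in attached cells (edgeR adjusted p = 0.0103) and, among floating cells, of 0.50 ± 0.10 (adjusted p = 0.000125). Neither pair of groups overlapped, which also held for 67% of all genes in the attached and 64.4% in the floating comparison. In attached cells the closest libraries were nearly equal, at 3.73 CPM in control and 3.77 CPM in GFI1 cells. Without attached control replicate 2, the lowest of the 12 libraries, the attached value was 0.38 (edgeR adjusted p = 0.0718). Without floating GFI1 replicate 3 the floating value was 0.60 (edgeR adjusted p = 6.02e-06). It ran from 0.43 to 0.60 in the 12 fits that each left out 1 library, with an edgeR adjusted p of up to 0.0021.

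The RNA precursor carries miR-210, whose mature arms are shown with the seed (bases 2 to 8) in capitals because the seed sets target choice, next to those of miR-22 from MIR22HG. The sequences are from RefSeq (GRCh38.p14), and no seed is shared among them. Mature microRNAs are too short for these libraries and were not analysed here.

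hsa-miR-210-3p: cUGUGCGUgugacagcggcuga
hsa-miR-210-5p: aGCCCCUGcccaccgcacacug
hsa-miR-22-3p: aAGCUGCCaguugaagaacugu
hsa-miR-22-5p: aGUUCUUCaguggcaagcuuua

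The MIR210 precursor row inside MIR210HG held at most 22 counts in a library and was at 1.88 ± 0.62 with suspension in control cells (edgeR adjusted p = 0.0165) and at 2.42 ± 0.49 in GFI1 cells (adjusted p = 0.000364). Without floating control replicate 3 the former was 1.50 (edgeR adjusted p = 0.110) and without attached control replicate 3 it was 1.53 (adjusted p = 0.0807). These reads may be shared with the host transcript. The promoter of MIR210HG (RefSeq, GRCh38.p14, minus strand, chr11:568408-568707) is shown with the hypoxia response cores ACGTG, 170 bases before the start, and GCGTG, 9 bases before it, in capitals, because the host transcript rose beside hypoxia-induced genes.

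MIR210HG promoter: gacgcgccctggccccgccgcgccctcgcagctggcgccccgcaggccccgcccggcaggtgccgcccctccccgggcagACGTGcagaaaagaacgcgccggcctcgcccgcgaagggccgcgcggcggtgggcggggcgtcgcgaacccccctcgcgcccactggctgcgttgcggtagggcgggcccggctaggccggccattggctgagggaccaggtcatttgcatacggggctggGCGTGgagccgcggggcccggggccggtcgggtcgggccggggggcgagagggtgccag

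Of all 35116 promoters, 21.4% held ACGTG and 36.5% GCGTG on either strand, and 48.4% held at least 1 of them. Neither TGACNNNGC nor AATCACNGC was in this window.

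Hypoxia-induced mRNAs rose together with MIR210HG in suspension. Of 22 such genes, 21 were higher and 0 lower in control cells (median 1.22) and 22 were higher in GFI1 cells (median 1.20), beside 19.6% and 15% higher among all genes. The counts were 20 to 21 and 22 in the fits that each left out 1 library. BNIP3L, a mitophagy receptor, rose by 1.60 ± 0.08 in control and 1.40 ± 0.07 in GFI1 cells (edgeR adjusted p = 1.90e-14 and 3.20e-13). PFKFB3, a glycolysis regulator, was the gene that did not pass in control cells, at -0.0036 (edgeR adjusted p = 0.978). With GFI1 the list was split, 11 higher against 9 lower among attached cells, beside 29.5% and 32.8% of all genes. The split was 10 against 9 among floating cells, beside 29.3% and 31.1%. VEGFA, the angiogenic growth factor, rose by 2.11 ± 0.13 and 2.17 ± 0.12, and PFKFB3 fell by 2.42 in attached cells and fell by 2.00 in floating cells (SE 0.08 in both).

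The mean log2(CPM + 1) of the 22 genes was 6.83, 7.22 and 6.52 in floating GFI1 replicates 1, 2 and 3, against 6.86, 6.88 and 6.81 in the floating control libraries. It was 5.41, 5.39 and 5.37 in attached control and 5.53, 5.56 and 5.51 in attached GFI1 cells. Replicate 3 was the lowest of the floating GFI1 libraries for the list and for MIR210HG. Replicate 2 was the highest for the list, while MIR210HG was nearly equal in replicates 1 and 2, at 26.4 and 26.9 CPM. The floating GFI1 libraries straddled the floating control libraries for the list, while all 3 were above them for MIR210HG. Without floating GFI1 replicate 2 the list median for GFI1 in floating cells was -0.07 with 8 higher and 9 lower, and without replicate 3 it was 0.42 with 13 higher and 7 lower, against 0.26 with all libraries.

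**Figure D5:**
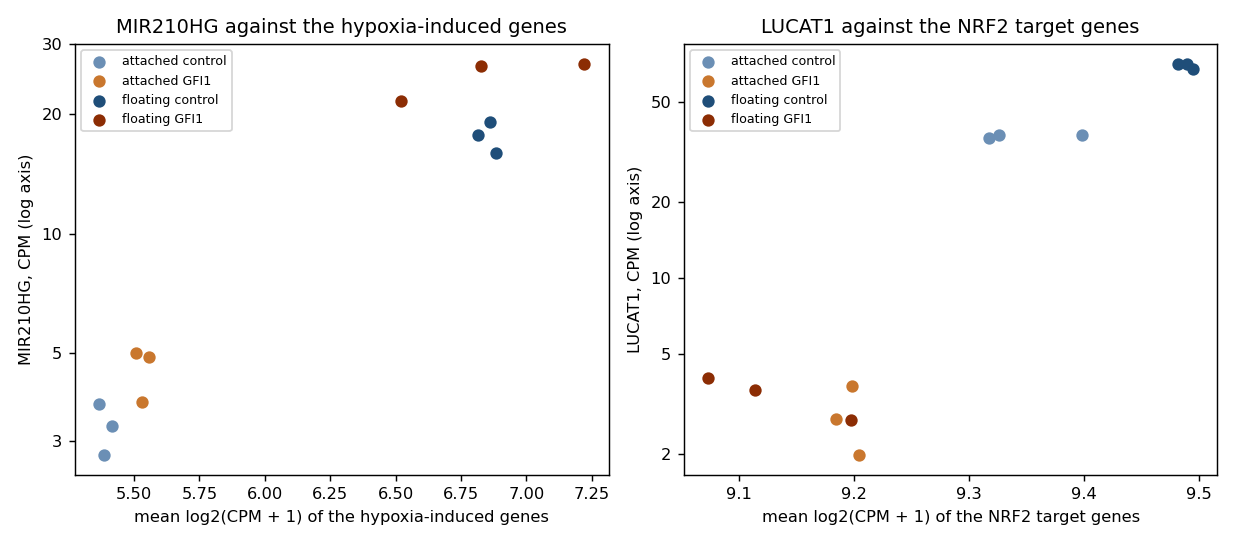
MIR210HG against the mean log2(CPM + 1) of 22 hypoxia-induced genes, and LUCAT1 against that of 22 NRF2 target genes, in each of the 12 libraries (CPM on log axes). The 6 floating libraries are at 6.52 or higher for the hypoxia list and at 16.0 CPM or higher for MIR210HG, and the 3 floating GFI1 libraries spread from 6.52 to 7.22.

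PLIN2, a lipid droplet protein, was most like MIR210HG (root mean square difference 0.254), followed by PFKFB4 (0.285), a regulator of glycolysis, and EGLN3 (0.292), an oxygen-sensing prolyl hydroxylase. The last 2 are also in the hypoxia list. With suspension PLIN2 rose by 2.30 ± 0.13 in control and 2.43 ± 0.13 in GFI1 cells, PFKFB4 by 2.59 ± 0.19 and 2.09 ± 0.16, and EGLN3 by 2.53 ± 0.16 and 2.05 ± 0.14. RASSF7, 1639 bp from MIR210HG on the opposite strand, rose with suspension by 0.50 ± 0.07 and 0.74 ± 0.07 (edgeR adjusted p = 1.68e-06 and 8.74e-09). PHRF1, a ubiquitin ligase 8029 bp away on the other side, was at -0.33 ± 0.04 and -0.17 ± 0.04 (adjusted p = 1.13e-06 and 0.00394). Measured between midpoints, 37 other genes tested lay within 250 kb of MIR210HG. Of these, 10 were higher and 7 lower with suspension in control cells (median 0.08), beside 19.6% and 20.5% of all genes.

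MIR22HG (ENSG00000186594; chr17:1711493-1717174, minus strand) varied least. It was at 25.5, 21.1 and 21.7 CPM in attached control, 27.3, 27.0 and 24.5 in attached GFI1, 30.1, 29.8 and 23.7 in floating control and 26.6, 29.3 and 26.4 in floating GFI1 cells. The attached control group had the lowest mean, and each pair of groups compared overlapped. With GFI1 the change was 0.21 ± 0.09 in attached cells (edgeR adjusted p = 0.0450) and, among floating cells, -0.02 ± 0.09 (adjusted p = 0.841). With suspension it was 0.29 ± 0.09 in control cells (edgeR adjusted p = 0.0105) and 0.06 ± 0.09 in GFI1 cells (adjusted p = 0.636). The call in attached cells was lost in 4 of 12 fits that each left out 1 library, with an adjusted p of up to 0.202 without attached control replicate 2, and so was that in floating against attached control cells, with an adjusted p of up to 0.0751 without floating control replicate 1. The interaction of MIR22HG was -0.23 (95% interval -0.48 to 0.03; edgeR adjusted p = 0.280).

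The MIR22HG promoter (RefSeq, GRCh38.p14, minus strand, chr17:1716161-1716460) held the GFI1 core AATCACNGC at 2 places, both read on the reverse strand, 94 bases before and 33 bases after the start. It is shown because 1.03% of all promoters hold this core while the RNA changed little with GFI1. Capitals also mark ACGTG (reverse strand, 112 bases before the start) and GCGTG (228 bases before it), and no marked sites overlap. The whole window lies inside the counted gene, whose annotated start at chr17:1717174 is upstream of the RefSeq start.

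MIR22HG promoter: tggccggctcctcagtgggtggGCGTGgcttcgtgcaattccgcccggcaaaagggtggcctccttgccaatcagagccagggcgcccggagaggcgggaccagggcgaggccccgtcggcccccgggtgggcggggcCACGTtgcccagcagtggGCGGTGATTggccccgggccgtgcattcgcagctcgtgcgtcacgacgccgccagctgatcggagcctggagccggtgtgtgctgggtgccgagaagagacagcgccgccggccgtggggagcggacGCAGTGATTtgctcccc

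A match of letters is not a binding site. RefSeq promoters were found for 4 of the 6 members, 5 in all, and those of NEAT1 and UCA1 were not used here. Neither of the 2 MALAT1 promoters held the GFI1 core. One held GCGTG at 2 places and TGACNNNGC at 2 places, with some overlap, and the other held GCGTG at 1 place.

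SAR1B, MIS12 and ZNF517 were most like MIR22HG, with root mean square differences of 0.0752 to 0.0841 where MIR22HG itself spanned 0.51 on the log2 scale. WDR81, which overlaps MIR22HG on the opposite strand, was at 0.23 ± 0.06 with GFI1 in attached cells (edgeR adjusted p = 0.00152). TLCD2, 1055 bp away, and SERPINF2, 25662 bp away, did not pass with suspension in control cells, at 0.15 ± 0.09 and 0.33 ± 0.26.

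Among the transcripts named as microRNA hosts, by a symbol that starts with MIR and ends with HG, MIR210HG stood at the upper end for suspension. Hosts with other names were not included. Of 62 such rows, 24 were tested, and with suspension 6 were higher and 5 lower in control cells (for all genes 19.6% and 20.5%), from -1.01 for MIR3936HG to 2.43 for MIR210HG. In GFI1 cells, where 15% of all genes were higher and 16.3% lower, 2 hosts were higher, MIR210HG and MIR34AHG (0.46 ± 0.09), and 3 were lower, MIR503HG (-0.85 ± 0.09), MIR4435-2HG (-0.46 ± 0.07) and MIRLET7BHG (-0.22 ± 0.07). The call of MIRLET7BHG was lost without attached GFI1 replicate 3 and without floating GFI1 replicate 2 or 3 (edgeR adjusted p = 0.102, 0.0854 and 0.0531). MIR34AHG, the host of the p53-induced miR-34a, rose by 0.46 ± 0.09 in control cells too. GFI1 came with 11 higher and 6 lower hosts in the attached state (for all genes 29.5% and 32.8%) and 8 and 6 in the floating state (29.3% and 31.1%). MIR4435-2HG rose by 1.23 ± 0.07 and 1.46 ± 0.08, MIRLET7BHG by 1.13 ± 0.08 and 1.22 ± 0.08, and MIR29B2CHG by 1.43 ± 0.11 and 0.68 ± 0.10. MIR100HG was at -0.61 ± 0.14 and -1.42 ± 0.15, and MIR17HG, the host of the proliferative miR-17 cluster, at -1.23 ± 0.21 and -0.92 ± 0.23.

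UCA1 (ENSG00000214049; chr19:15828206-15836326, plus strand) was at the limit of detection in every group. Its counts were 0, 4 and 0 in attached control, 1, 3 and 3 in attached GFI1, 0, 4 and 4 in floating control and 5, 2 and 1 in floating GFI1 cells. The groups overlapped throughout. A count of 0 allows up to 3 counts, or about 0.164 CPM, for counting error only. Differences among counts this low could therefore not be resolved at this depth. Without the low-count filter its unadjusted p from edgeR was 0.344 to 0.891 in the 5 comparisons. Its nearest tested neighbour, CYP4F12, a fatty acid hydroxylase 131032 bp away, was at -1.88 ± 0.10 and -1.92 ± 0.08 with GFI1 and at 1.24 ± 0.08 and 1.20 ± 0.11 with suspension. On the other side the pseudogene AC005336.1, with at most 51 counts, was at -1.38 ± 0.31 and -2.50 ± 0.29 with GFI1.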

How the data were processed

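RNA was extracted from sorted A549 cells, purified on poly-T beads and sequenced on a NovaSeq system by the authors. The deposited values are raw counts per gene on GRCh38 (hg38). The study's methods name Hisat2 and featureCounts, while the submitters' processing notes name Bowtie2 and HTSeq. The annotation release, strand setting and handling of reads with several matches were not given in the sources used here. The 12 libraries held 17014188 to 20748677 counts, and 27 gene symbols that had turned into dates were replaced from the gene identifiers.

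The sample labels gave the groups and replicate numbers. Genes were kept by filterByExpr (minimum count 10, minimum total 15), scaled by TMM and fitted with 4 group means in edgeR 4.0.16 (R 4.3.3; biological coefficient of variation 4.86%). Quasi-likelihood tests were two-sided over 5 contrasts, with Benjamini-Hochberg adjustment over all 17829 genes. CPM values were scaled by TMM, log2 CPM used a prior count of 2, and FPKM used the table's gene length. A SE is the log2 fold change divided by the root of the F statistic. Replicates differed by more than counting error (chi-square per gene 2.01 to 11.9 in 12 pairs), and a count of 0 was read as up to 3 counts. Same-numbered replicates did not deviate together (correlations -0.016 to 0.0089), so no pairing was used.

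The text names the members and GFI1, for each member the nearest tested gene on each side, tested overlapping genes and the 3 genes of the most similar pattern (minimum mean log2 CPM 1), for each list the gene of lowest adjusted p in each direction, the 5 long noncoding RNAs of highest FPKM and miRNA hosts past the threshold. CLK2, SNRNP70, ARRDC3-AS1, the SNHG genes and single marker genes were named after their values were seen. Some genes that this rule or the marker list holds are not reported here. Members and lists were chosen with earlier results of these data known. Code was tested on simulated counts. Alternatives were DESeq2 1.42.0, RLE, upper quartile or library size scaling, robust empirical Bayes, a replicate block, fits to the compared groups alone, no filter or 10 counts in each library as a minimum, and leaving out each library.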

Additional observations from a re-analysis of the deposited data

Results flagged for a closer look

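For LUCAT1, the suspension effect in GFI1 cells minus that in control cells was -0.62 ± 0.19 on the log2 scale (edgeR adjusted p = 0.0378). It was flagged because a test of the difference itself passed the threshold with all 12 libraries. The call was lost in 10 of the 12 fits that each left out 1 library, with an edgeR adjusted p of up to 0.259. The same test flagged 8 other named genes. Among the NRF2 targets the difference was -0.48 for AKR1B10, -0.47 for AKR1C1 and -0.33 for TXNRD1. Among microRNA hosts it was -0.81 for MIR100HG, -0.75 for MIR29B2CHG and 0.89 for MIR3936HG. It was 0.42 for PFKFB3 and 0.27 for HNRNPH3, a paraspeckle protein. Their edgeR adjusted p ran from 1.49e-05 for AKR1C1 to 0.0191 for PFKFB3. The interaction passed for 10.8% of all tested genes.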

How the results depend on the processing

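Each value was recomputed under 21 alternatives, 12 of which left out 1 library. The number of members past the threshold was 3 to 5 for GFI1 in attached cells (3 without attached control replicate 2), 4 for GFI1 in floating cells, 4 to 5 for suspension in control cells, 2 to 4 for suspension in GFI1 cells and 0 to 1 for the interaction (0 in 10 of the fits without 1 library). The GFI1 effects on MALAT1, NEAT1 and LUCAT1 and the suspension effects on MALAT1 and MIR210HG kept their direction and passed under all 21. The suspension effect on NEAT1 missed the threshold under robust empirical Bayes in control cells (adjusted p = 0.107) and GFI1 cells (0.0884) and, in control cells, with DESeq2 (0.0505). That of MIR22HG with GFI1 in attached cells missed it without a filter (0.0529). The interaction of MIR210HG turned below 0 with RLE (-0.0065), library size (-0.012), at least 10 counts (-0.0013) and DESeq2 (-0.0048), and ran from -0.10 to 0.12 without 1 library. That of MALAT1 ran from -0.15 to 0.041 and that of NEAT1 from -0.12 to 0.11 without 1 library. The GFI1 effect on MIR22HG in floating cells was above 0 with upper quartile (0.026) and library size scaling (0.11) and ran from -0.13 to 0.036 without 1 library. With library size scaling the median log2 change of all genes with GFI1 was 0.14 in attached and floating cells, against -0.0066 and 0.011 with TMM. Replicate numbers do not mark shared cultures in the labels, and with the replicate block the members past the threshold were 5, 4, 5, 3 and 1, as without it. The 198 other values recomputed included counts over the lists and over all genes. Among the values of other named genes, 10 lost and 1 gained a call in at least 1 fit, and 0 reversed. Counts of list genes without each library were added after the data were seen. Depth limits UCA1, ADGRV1, AC123595.1 and MIR210. The causes of these differences were not tested.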

Other observations

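The other 3 of the 5 most abundant long noncoding RNAs spanned a narrower range over the groups than MALAT1 and NEAT1. NORAD averaged 72.8 FPKM in attached control, 89.95 in attached GFI1, 91.7 in floating control and 100.2 in floating GFI1 cells. In the same order MALAT1 averaged 37.3, 99.8, 60.5 and 158.0 FPKM, and NEAT1 averaged 38.6, 119.0, 46.2 and 145.2 FPKM. NORAD was therefore the most abundant of the 5 in both control groups, and NEAT1 in attached GFI1 and MALAT1 in floating GFI1 cells. AL391427.1, annotated as antisense, averaged 38.2, 63.3, 51.9 and 78.4 FPKM, and LRRC75A-AS1 45.6, 41.4, 55.8 and 52.0 FPKM. In the edgeR fit over all genes, with Benjamini-Hochberg adjusted p-values, GFI1 cells had more NORAD than control cells when attached (log2 fold change 0.31 ± 0.043 SE, adjusted p = 8.756e-07) and when floating (0.13 ± 0.043 SE, adjusted p = 0.0119). LRRC75A-AS1 was lower in attached GFI1 cells (log2 fold change -0.14 ± 0.051 SE, adjusted p = 0.0213), and in floating cells its difference of -0.10 did not pass (adjusted p = 0.0868). These 3 genes were chosen by their mean level. No test is given here for AL391427.1, whose group means had the same order as those of MALAT1 and NEAT1.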
